A study of Arabidopsis thaliana with 20 samples.

Results

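Roots of 2 kinds of grafted Arabidopsis thaliana seedlings were compared, both under a shoot of the brassinosteroid-deficient mutant cpd. In cpd/WT the root was Col-0 wild type (WT), and in cpd/cpd the root was cpd too (shoot named first). The members were the libraries whose labels give a cpd shoot, 5 per group, so 10 of the 20 libraries of the series. Root genotype is the only labelled difference between them, except that the titles of the cpd/cpd libraries lack the word Grafted; the design text lists cpd/cpd among the grafts. Each library pooled 3 whole roots. Labels and design text state neither the allele of cpd nor the age of the seedlings or how they were grown. The other 10 libraries, with the same root genotypes under a WT shoot (WT/WT and WT/cpd), shared no library with this comparison and served for the side-by-side values.

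Brassinosteroids are steroid hormones that plants build from sterols through a chain of mostly cytochrome P450 enzymes, one of which is CPD. The hormone binds the receptor kinase BRI1 at the cell surface, and the signal reaches transcription factors of the BZR1 and BES1 family. In a feedback loop these factors repress synthesis genes such as CPD and DWF4. In roots brassinosteroids are known for their role in cell elongation, meristem size, divisions of the stem cell niche and vascular patterning. They are thought to act close to where they are made rather than to travel between shoot and root.

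The 10 libraries held 22040458 to 32337043 counts each. On the first principal component of log2 CPM (counts scaled to a common library size of 1e6), which took 30.1% of their variance, cpd/WT lay between -38.1 and -11.0 and cpd/cpd between 6.55 and 40.2. On the second (21.2%), cpd/cpd replicate 4 stood apart at 54.3 and cpd/WT replicate 2 at -31.8, and these were also the libraries least correlated with their own group (mean r across genes of 0.974 and 0.9788). The 8 root marker genes in the list summed to 13005 to 15250 CPM in cpd/WT and 10722 to 13212 in cpd/cpd. Nearly all of each sum came from BGLU23 (AT3G09260), with 12841.5 to 15056.7 CPM in cpd/WT and 10553.0 to 13100.9 in cpd/cpd. None of the 8 lacked counts over the 10 libraries as a whole. The sums do not show that each marker was present in each library. Photosynthesis genes, the marker of shoot tissue, took 0.197% to 0.335% of counts in cpd/WT and 0.190% to 0.376% in cpd/cpd. In whole roots, fewer cells of a type and less RNA per cell cannot be told apart.

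Of 20862 genes tested, 389 (1.86%) were called at an adjusted p under 0.05: 171 (0.82%) rose and 218 (1.04%) fell in roots of cpd. Among the called genes 301 had no overlap between the 5 and 5 libraries, while 4.99% of all genes tested had none (2.23% with cpd/cpd above and 2.76% with it below). The median size of a called change was 0.58 on the log2 scale, and 38 rises and 40 falls reached at least 1. The number of calls depended on single libraries. Leaving out 1 library at a time gave from 86 genes (without cpd/WT replicate 3) to 690 (without cpd/WT replicate 2), and leaving out both cpd/cpd replicate 4 and cpd/WT replicate 2 gave 1986, of which 1343 were higher and 643 lower. That last count held 358 of the 389. A core of 69 genes, 35 higher and 34 lower, was called under all 30 alternatives, with a median size of 0.81. Of the 66 called genes named below, 28 were in this core. MRD1 lost no call but was given no adjusted p by DESeq2, and the others outside the core had adjusted p values that rose over 0.05 when 1 or more of the libraries were left out in turn, most often without cpd/WT replicate 3 (35 genes), cpd/cpd replicate 3 (35), cpd/cpd replicate 1 (34), cpd/cpd replicate 5 (34), cpd/WT replicate 4 (20), cpd/WT replicate 5 (16) or cpd/WT replicate 1 (10).

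**Figure D1:**
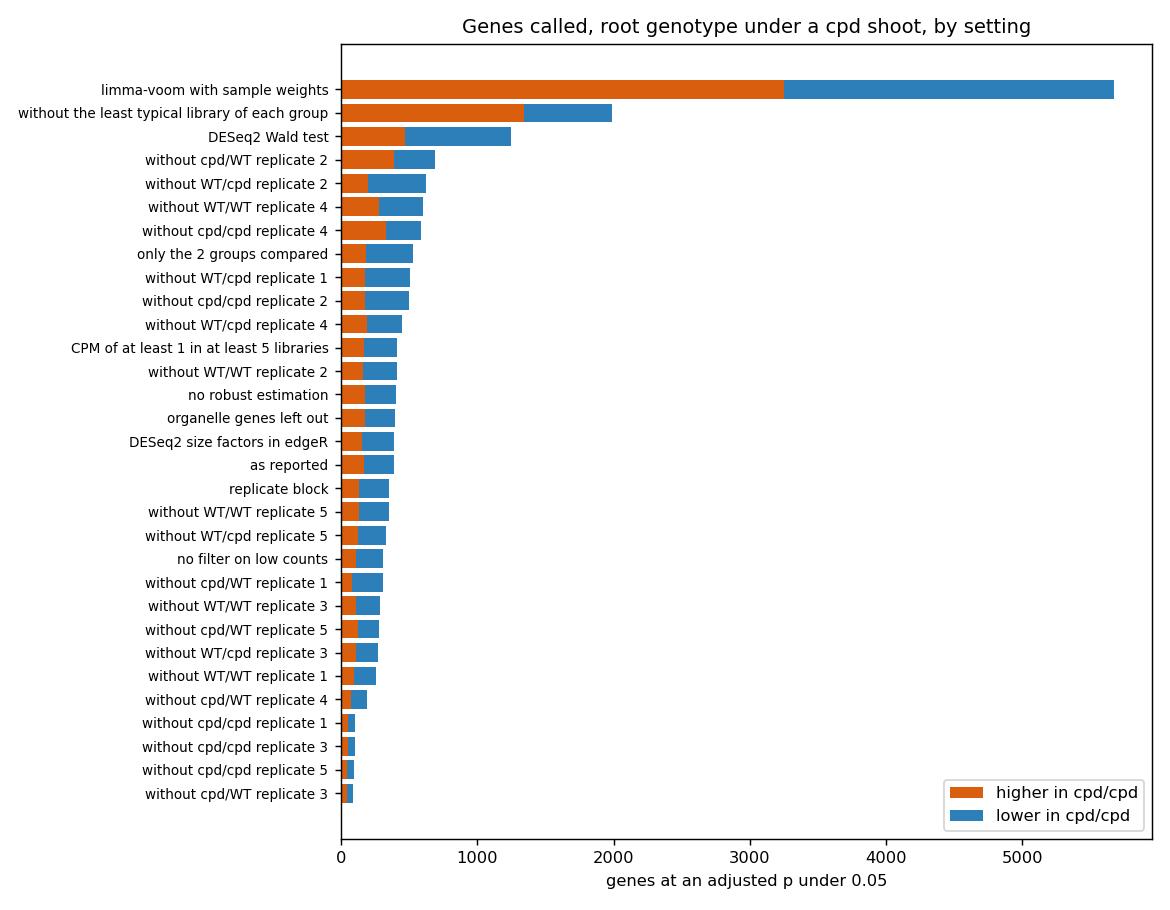
Number of genes at an adjusted p under 0.05 between cpd/cpd and cpd/WT (horizontal axis) under each of 30 alternatives and as reported (vertical axis), with genes higher in cpd/cpd in orange and lower in blue. The count ran from 86 without cpd/WT replicate 3 to 5670 with limma-voom sample weights, around the 389 reported.

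The gene that names the mutant came first. CPD (AT5G05690) had 44.4, 34.1, 39.2, 41.3 and 45.4 CPM in cpd/WT replicates 1 to 5, and 2.67, 2.38, 2.30, 3.86 and 2.98 CPM in cpd/cpd. Every cpd root was far below every WT root, and a residual level was present in each. The fall was 14.5-fold (log2 -3.85 ± 0.15, SE; adjusted p = 7.9e-13). CPD is 1 of 21 genes named here that overlap an annotated neighbour, and since the strand setting used in counting is not stated, reads of such pairs cannot be told apart.

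Genes for 3 enzymes before and after CPD in the pathway were higher in cpd roots. DWF4 (AT3G50660), the hydroxylase that feeds the step CPD carries out, had 13.7, 23.7, 17.1, 19.6 and 22.4 CPM in cpd/WT and 44.8, 48.5, 43.1, 42.4 and 57.8 in cpd/cpd. BR6OX2 (AT3G30180), which makes the final active hormones, had 20.4, 20.4, 21.7, 16 and 17.8 CPM against 46.0, 47.8, 50.6, 34.6 and 46.6. CYP90D1 (AT3G13730), a hydroxylase of the middle of the pathway, had 29.5, 32.5, 26.7, 38.9 and 37.7 CPM against 53.4, 52.8, 54.7, 58.6 and 44.8. In none of the 3 genes did the groups overlap; the lowest cpd/cpd value of BR6OX2 was that of replicate 4. The rises were 2.45-fold for DWF4 (log2 1.29 ± 0.15, adjusted p = 0.00011), 2.34-fold for BR6OX2 (1.23 ± 0.14, adjusted p = 0.0001) and 1.60-fold for CYP90D1 (0.68 ± 0.11, adjusted p = 0.0038), and all 3 were called under all 30 alternatives.

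The remaining synthesis genes of the list of 7 were not called. BR6OX1 (AT5G38970), the close relative of BR6OX2, spanned 3.27 to 5.42 CPM with a WT root and 3.90 to 8.70 with a cpd root (log2 0.71 ± 0.20, adjusted p = 0.071). Of its 5 cpd/cpd libraries, 4 lay above all of cpd/WT. Without cpd/cpd replicate 4 and cpd/WT replicate 2 the list held 4 genes called higher, where 1343 of 20973 genes tested were. ROT3 (AT4G36380), the partner of CYP90D1, ran from 42.5 to 56.7 CPM in cpd/WT and 46.9 to 55.4 in cpd/cpd, with a log2 difference of 0.03 ± 0.08. DET2 (AT2G38050), a steroid reductase, differed by -0.08 ± 0.10. ROT3 is the 1 synthesis gene with a called interaction, the test of whether the root difference is the same under both shoots: under a WT shoot its difference was 0.40 ± 0.08 (adjusted p = 0.0039), and the interaction was -0.37 ± 0.11 (adjusted p = 0.039). The 8 genes of upstream sterol synthesis had no call, with a median log2 of 0.16 beside 0.02 for all genes tested. Of the 8 values, 7 were positive, and 4 genes were called higher without cpd/cpd replicate 4 and cpd/WT replicate 2.

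**Figure D2:**
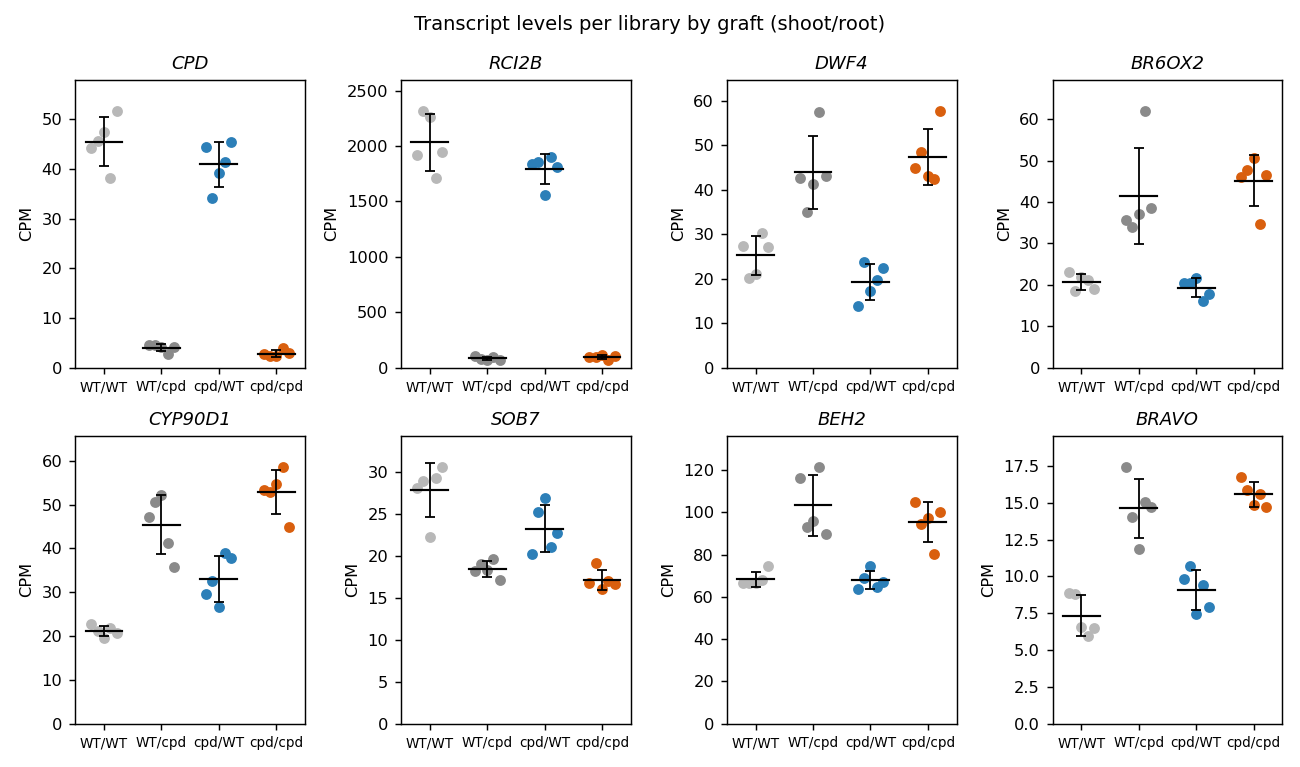
CPM per library (vertical axis, from 0) of 8 genes in the 4 grafts (horizontal axis, shoot/root); points are libraries, lines and bars the mean ± SD of 5. Under either shoot the cpd roots lie below the WT roots for CPD, RCI2B and SOB7 and above them for DWF4, BR6OX2, BEH2 and BRAVO, while CYP90D1 in cpd/WT (26.7 to 38.9 CPM) reaches the range of WT/cpd (35.8 to 52.1).

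Of 5 tested genes that inactivate the hormone, 1 was called, and it fell, beside 1.04% of all genes tested called lower. SOB7 (AT1G17060), a P450 that inactivates brassinosteroids, had 20.3, 25.3, 27.0, 21.1 and 22.8 CPM in cpd/WT and 16.8, 19.2, 16.1, 17.1 and 16.7 in cpd/cpd. The groups did not overlap, and it fell by 0.44 on the log2 scale (SE 0.09, adjusted p = 0.018). Its call was lost without cpd/WT replicate 3 or without cpd/cpd replicate 1, 3 or 5 (adjusted p of 0.052 to 0.067). All 5 inactivation genes had negative values, with a median of -0.44. BAS1 (AT2G26710), the related P450, had -0.41 ± 0.15 (adjusted p = 0.13), and the acyltransferase gene BIA1 (AT4G15400) had -0.46 ± 0.13 (adjusted p = 0.066). Without cpd/cpd replicate 4 and cpd/WT replicate 2, 4 of the 5 were called lower, where 643 of 20973 genes tested were. Their summed level was 93.4 to 109 CPM in cpd/WT and 71.6 to 85.9 in cpd/cpd.

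Of 13 signalling genes tested 1 was called, beside 1.86% of all genes tested. BEH2 (AT4G36780), a homologue of the transcription factors BES1 and BZR1, had 63.8, 69.0, 74.4, 64.6 and 67.0 CPM in cpd/WT and 105, 94.4, 97.1, 80.2 and 100 in cpd/cpd. No cpd/cpd library reached down to cpd/WT, and the rise was 1.41-fold (log2 0.49 ± 0.09, adjusted p = 0.0074), called under all 30 alternatives. BEH1 (AT3G50750), another member of that family at a low level, ran from 0.867 to 1.74 CPM in cpd/WT and 1.78 to 3.42 in cpd/cpd (1.02 ± 0.27, adjusted p = 0.058). The receptor gene BRI1 had 0.21 ± 0.10 (adjusted p = 0.27). The list's median was -0.02.

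The 250 bases before the annotated start of 3 of these genes are shown to set the synthesis genes that rose together, DWF4 and BR6OX2, beside the signalling gene that rose, BEH2. They were read from the RefSeq TAIR10.1 genome, and capitals mark the letters CGTGTG or CGTGCG, which BZR1 is known to bind, and CACGTG (the G-box), each on either strand. DWF4 lies on the minus strand (chr3:18817406-18817655), BR6OX2 on the plus strand (chr3:11810476-11810725) and BEH2 on the minus strand (chr4:17334356-17334605).
DWF4: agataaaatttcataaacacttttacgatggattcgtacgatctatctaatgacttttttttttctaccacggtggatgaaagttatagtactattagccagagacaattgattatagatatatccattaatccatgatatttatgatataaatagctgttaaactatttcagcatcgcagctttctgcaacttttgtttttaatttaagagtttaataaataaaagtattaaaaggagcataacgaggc
BR6OX2: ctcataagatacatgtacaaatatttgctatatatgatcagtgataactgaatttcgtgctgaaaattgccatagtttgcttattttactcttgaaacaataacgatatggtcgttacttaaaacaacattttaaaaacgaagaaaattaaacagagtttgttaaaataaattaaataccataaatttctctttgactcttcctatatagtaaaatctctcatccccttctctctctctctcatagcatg
BEH2: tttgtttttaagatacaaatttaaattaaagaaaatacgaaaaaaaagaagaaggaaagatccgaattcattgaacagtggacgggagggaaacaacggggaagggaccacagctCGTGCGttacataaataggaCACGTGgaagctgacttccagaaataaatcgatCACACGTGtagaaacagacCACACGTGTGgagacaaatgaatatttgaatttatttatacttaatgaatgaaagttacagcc
The windows of DWF4 and BR6OX2 held none of these letters, and neither did those of the other synthesis and inactivation genes. Sequence outside the 250 bases was not searched, so sites elsewhere would be missed. That of BEH2 held CGTGTG 3 times, CGTGCG 1 time and CACGTG 3 times, some of them overlapping. Of the signalling genes that were not called, BZR1 held CGTGTG 2 times and CACGTG 1 time, BAK1 held CGTGCG 1 time and BEH4 held CACGTG 2 times. Among 27443 promoters of the same length, 6.71% held CGTGTG or CGTGCG and 6.49% held CACGTG. Of the genes called higher with a window, 10.3% (17 of 165) held CGTGTG or CGTGCG, against 8.26% (18 of 218) of those called lower and 7.05% of all genes tested. For CACGTG the shares were 10.3%, 5.5% and 7.29%.

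Beyond the brassinosteroid genes, RCI2B (AT3G05890) fell far. It encodes a small hydrophobic membrane protein of a family named for induction by cold. RCI2B had 1842, 1858, 1560, 1904 and 1811 CPM in cpd/WT and 97.3, 96.6, 110, 64.4 and 102 in cpd/cpd. The cpd roots held 19.1-fold less (log2 -4.25 ± 0.15, adjusted p = 4.7e-13). Its tandem neighbour and relative RCI2A (AT3G05880) had 388 to 422 CPM in cpd/WT and 324 to 429 in cpd/cpd, overlapping groups with a log2 difference of -0.15 ± 0.12 (adjusted p = 0.52). The 2 genes are similar in sequence, so some reads may be shared between them.

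Several transcripts were close to absent in one root genotype and present in the other; these were chosen after their values were seen. Raw counts of AT4G04223, annotated as a non-coding RNA, were 7, 0, 0, 3 and 11 in cpd/WT and 527, 424, 456, 488 and 405 in cpd/cpd. MPC (AT3G19350), a relative of poly(A)-binding proteins, had 2, 2, 0, 1 and 1 counts against 138, 98, 140, 41 and 69. AT4G18150, annotated as a putative kinase with a domain of unknown function, had 8, 0, 1, 0 and 3 counts against 281, 284, 325, 29 and 415. These 3 were higher in every cpd root, with cpd/cpd replicate 4 lowest for MPC and AT4G18150. MRD1 (AT1G53480) went the other way, with 1330, 1022, 962, 1180 and 1143 counts in cpd/WT and 0, 1, 7, 8 and 0 in cpd/cpd. The non-coding RNA gene AT4G14548 had 7, 16, 9, 35 and 12 counts against 158, 147, 181, 192 and 142. All 5 were called (adjusted p from 5.7e-09 to 0.0021), and the WT-shoot grafts split the same way: AT4G04223 totalled 21 counts in WT/WT and 2398 in WT/cpd, and MRD1 5912 and 84.

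A set of smaller and very even differences followed the root in all 20 libraries. AT1G26160, annotated as a metal-dependent phosphohydrolase, had 46.1, 44.0, 47.8, 46.5 and 48.7 CPM in cpd/WT and 18.5, 22.2, 22.9, 19.5 and 19.2 in cpd/cpd, a 2.28-fold fall (adjusted p = 5.9e-08). COQ3 (AT2G30920), a methyltransferase of ubiquinone synthesis, had 17.5, 17.7, 16.4, 15 and 16.3 CPM against 30.6, 25.3, 29.8, 29.0 and 30.3, a 1.75-fold rise (adjusted p = 1.4e-06). AT2G05320, an N-acetylglucosaminyltransferase of glycoprotein processing, had 12.5, 13.5, 13.1, 12.5 and 11.4 CPM against 20.8, 20.3, 20.6, 18.7 and 20.4, a 1.60-fold rise (adjusted p = 0.00012). The spread within each group was small beside the distance between them, but AT2G05320 was chosen after its values were seen. Of all genes tested, 30 were higher in each of the 10 cpd-root libraries than in each of the 10 WT-root libraries and 19 were lower. Under the cpd shoot 41 of these 49 were called. Genes picked this way cannot overlap between cpd/cpd and cpd/WT, so that share is a description only. The 49 include CPD, RCI2B, SOB7 and ABCG2 below and DWF4, BR6OX2, BEH2 and BRAVO above. The 49 lay on all 5 chromosomes: 10 on chromosome 1, 13 on 2, 11 on 3, 8 on 4 and 7 on 5, where 15.1% of the genes tested and 26.5% of these lay on chromosome 2.

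Genes of the root tip were among the rises. BRAVO (AT5G17800), a MYB factor that restrains divisions of the quiescent centre, had 9.82, 10.7, 7.45, 9.45 and 7.94 CPM in cpd/WT and 16.8, 15.9, 14.9, 15.6 and 14.7 in cpd/cpd. PLT3 (AT5G10510), a PLETHORA factor that maintains the stem cell niche, had 32.7, 31.9, 30.6, 36.3 and 44.9 CPM against 46.5, 49.7, 52.2, 53.7 and 61.1. Both were higher in every cpd/cpd library, by 1.72-fold (adjusted p = 0.0038) and 1.49-fold (adjusted p = 0.0041). UPB1 (AT2G47270), a bHLH factor that promotes the change from division to differentiation, had 27.3, 25.4, 23.8, 23.6 and 14.9 CPM in cpd/WT and 14.2, 13.8, 13.3, 9.45 and 12.9 in cpd/cpd. It fell 1.8-fold (adjusted p = 0.013), and cpd/WT replicate 5 lay close to the cpd/cpd range. Thus 3 of 9 meristem and niche genes were called, 2 higher and 1 lower, with a median of 0.16, and these 3 calls held under all 30 alternatives. Over all genes tested, 0.82% were called higher and 1.04% lower.

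Cell cycle genes had small positive values. CYCB2;1 (AT2G17620), a B-type cyclin of mitosis, had 4.13, 3.55, 3.3, 4.0 and 4.26 CPM in cpd/WT and 6.44, 5.05, 6.17, 7.63 and 7.39 in cpd/cpd, a 1.69-fold rise (adjusted p = 0.0042). It was the 1 called gene of 14 mitotic genes, beside 0.82% of all genes tested called higher. All 14 had positive values (median 0.20). None of 9 DNA replication genes was called, and all 9 were positive (median 0.21). Both lists had those signs with DESeq2 size factors as well. Their summed levels overlapped between the groups. The mitotic genes held 220 to 282 CPM in cpd/WT and 213 to 314 in cpd/cpd, and the replication genes 230 to 313 and 228 to 339. Under a WT shoot CYCB2;1 had -0.13 ± 0.13 (adjusted p = 0.58), and the difference between the shoots was called (interaction 0.89 ± 0.18, adjusted p = 0.007). The mitotic and replication lists had medians of -0.14 and -0.15 there.

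Some genes for suberin, the lipid polymer that seals the endodermis, and for phenylpropanoids, the precursors of lignin, fell: 2 of 12 and 3 of 15 tested. The share called lower was 1.04% over all genes tested. ABCG2 (AT2G37360), an exporter of suberin precursors, had 73.7, 57.6, 67.0, 67.7 and 59.1 CPM in cpd/WT and 48.3, 54.6, 49.1, 39.1 and 43.3 in cpd/cpd. It fell by 0.47 on the log2 scale (SE 0.09, adjusted p = 0.014), and this call held under all 30 alternatives. GPAT5 (AT3G11430), an acyltransferase of suberin synthesis, had 43.9, 36.3, 38.4, 37.7 and 31.0 CPM against 27.0, 31.4, 26.6, 20.1 and 23.3, with 1 cpd/cpd library just above the lowest of cpd/WT. It fell by 0.54 (SE 0.13, adjusted p = 0.038). All 12 suberin genes had negative values, with a median of -0.38. Their summed level was 903 to 977 CPM in cpd/WT and 564 to 840 in cpd/cpd.

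Among 6 MYB regulators of suberin, MYB41 (AT4G28110) had 3.39 to 4.43 CPM in cpd/WT and 0.997 to 2.38 in cpd/cpd and was called lower (log2 -1.08 ± 0.25, adjusted p = 0.036). The other 5 were negative and not called. Without cpd/cpd replicate 4 and cpd/WT replicate 2, 3 of the 6 were called lower, where 643 of 20973 genes tested were. The calls of GPAT5 and MYB41 were lost without cpd/WT replicate 1, 3 or 4 or cpd/cpd replicate 1, 3 or 5, that of GPAT5 also without cpd/cpd replicate 4 and that of MYB41 without cpd/WT replicate 5 (adjusted p up to 0.10). No gene of the 11 in the Casparian strip list was called, with a median of -0.16 and 9 negative values. Under a WT shoot 6 of them were called lower and the median was -0.81. In the phloem list 1 of 10 genes was called, beside 1.04% of all genes tested called lower. This was SMXL5 (AT5G57130), which promotes phloem formation. It ran from 39.9 to 58.2 CPM in cpd/WT and 32.6 to 40.6 in cpd/cpd (-0.41 ± 0.09, adjusted p = 0.035, and up to 0.10 without single libraries).

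The first enzymes of the phenylpropanoid pathway carried the 3 calls of the monolignol list, in which 11 of 15 values were negative and 4 positive (median -0.13). PAL2 (AT3G53260), a phenylalanine ammonia-lyase, had 598, 630, 577, 609 and 477 CPM in cpd/WT and 384, 466, 373, 310 and 259 in cpd/cpd. It fell 1.61-fold (adjusted p = 0.013), under all 30 alternatives. C4H (AT2G30490), which acts next, had 657, 741, 684, 712 and 649 CPM against 567, 615, 543, 532 and 535 (-0.30 ± 0.07, adjusted p = 0.029). PAL4 (AT3G10340) ran from 64.4 to 82.7 CPM in cpd/WT and 45.3 to 64.9 in cpd/cpd (-0.41 ± 0.09, adjusted p = 0.033). The groups were apart for PAL2 and C4H and touched for PAL4. Flavonoid synthesis, a later branch, had no call among 10 genes, all of them negative with a median of -0.51. Their sum was 3025 to 4061 CPM in cpd/WT and 1622 to 3086 in cpd/cpd. Under a WT shoot PAL2 differed by 0.04 ± 0.13, and its interaction was -0.73 ± 0.19 (adjusted p = 0.022). The calls of C4H and PAL4 were lost without cpd/WT replicate 3 or cpd/cpd replicate 1, 3 or 5, that of C4H also without cpd/WT replicate 4 and that of PAL4 without cpd/WT replicate 1 or 5 (adjusted p up to 0.10).

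**Figure D3:**
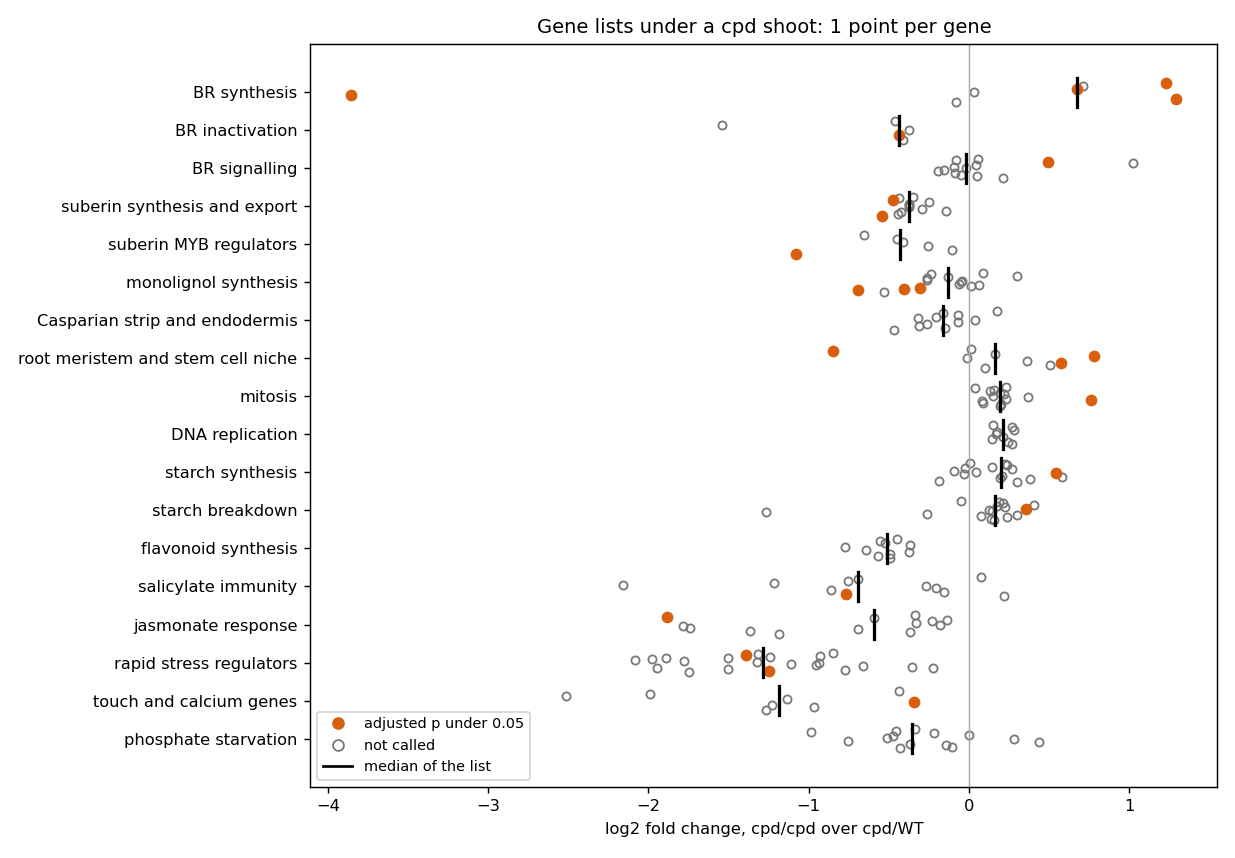
Log2 fold change of cpd/cpd over cpd/WT (horizontal axis) for the genes of 18 lists (vertical axis), 1 point per gene, with called genes in filled orange, others open, and a bar at each list's median. All suberin, flavonoid, jasmonate response, rapid stress and touch genes lie below 0 and all mitotic and DNA replication genes above 0, with few called members in each.

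Starch genes had few calls, both upward. SS3 (AT1G11720), a starch synthase, had 12.2, 8.65, 11.9, 12.3 and 14.2 CPM in cpd/WT and 17.1, 15.3, 17.5, 17.8 and 18.7 in cpd/cpd (0.54 ± 0.12, adjusted p = 0.023). ISA3 (AT4G09020), a debranching enzyme of starch breakdown, had 39.3, 33.1, 37.7, 36.8 and 38.9 CPM against 52.4, 45.5, 50.4, 42.2 and 47.0 (0.35 ± 0.08, adjusted p = 0.023). Neither gene's groups overlapped. They were the called members of 16 starch synthesis and 16 starch breakdown genes, whose medians were 0.20 and 0.16. Of all genes tested, 0.82% were called higher. Without cpd/cpd replicate 4 and cpd/WT replicate 2 each list had 3 genes called higher, where 1343 of 20973 genes tested were. Both calls were lost without cpd/WT replicate 3 or cpd/cpd replicate 1, 3 or 5, and that of ISA3 also without cpd/WT replicate 4 (adjusted p of 0.058 to 0.086).

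Hormone genes outside the brassinosteroid pathway gave single calls. GA2OX6 (AT1G02400), which inactivates gibberellins, had 21.3, 23.7, 23.7, 21.0 and 30.3 CPM in cpd/WT and 12.6, 16.2, 12.3, 13.8 and 11.8 in cpd/cpd, a 1.8-fold fall (adjusted p = 0.0087) that held under all 30 alternatives. RGL2 (AT3G03450), a DELLA repressor of gibberellin responses, had 3.97 to 5.21 CPM in cpd/WT and 5.42 to 10.1 in cpd/cpd, a 1.86-fold rise (adjusted p = 0.027, and up to 0.087 without single libraries). ARR3 (AT1G59940), a cytokinin response regulator, had 7.15, 11.6, 7.82, 7.61 and 7.57 CPM against 22.1, 16.4, 21.6, 7.41 and 19.7. Its rise (1.07 ± 0.26, adjusted p = 0.04) was seen in 4 of 5 cpd/cpd libraries, while replicate 4 lay within cpd/WT, and its adjusted p was up to 0.11 without single libraries. Of 8 gibberellin genes 1 was called and of 17 cytokinin genes 1, beside 1.86% of all genes tested. None was called among 9 auxin response, 12 auxin synthesis and transport, 8 ethylene and 17 abscisic acid genes.

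The largest falls beyond CPD and RCI2B included genes known for fast responses to stress, wounding or pathogens. WRKY33 (AT2G38470), a defence transcription factor, had 79.4, 130, 228, 102 and 267 CPM in cpd/WT and 76.5, 67.7, 66.6, 57.6 and 71.1 in cpd/cpd. PUB23 (AT2G35930), a ubiquitin ligase that dampens immunity, had 59.6, 78.8, 92.2, 92.4 and 147 CPM against 40.6, 48.6, 38, 36.5 and 28.1. AT2G41640, a glycosyltransferase gene, had 27.0, 32.9, 68.8, 47.1 and 82.8 CPM against 15.3, 18.1, 14.5, 13.4 and 13.5. The cpd/WT pools spread widely, with replicates 3 and 5 high for WRKY33 and AT2G41640, whereas the cpd/cpd pools lay close together and below them. On the log2 scale the falls were 1.25 ± 0.32 for WRKY33 (adjusted p = 0.049), 1.29 ± 0.28 for PUB23 (adjusted p = 0.023) and 1.79 ± 0.36 for AT2G41640 (adjusted p = 0.017).

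Others among the largest falls were CYP94B3 (AT3G48520), which degrades the active jasmonate (10.1 to 20.6 CPM in cpd/WT against 2.42 to 6.28), the ERF family gene AT5G52020 (11.6 to 42.8 against 3.63 to 9.09), the VQ protein gene AT2G22880 (6.94 to 22.5 against 2.60 to 5.38) and AT2G25460 (8.22 to 37.1 against 4.77 to 6.79). Their log2 values were -1.88, -1.84, -1.79 and -1.77, with adjusted p values of 0.017, 0.022, 0.043 and 0.049. SRO5 (AT5G62520, -1.73), the glycosyltransferase-like gene FRB1 (AT5G01100, -1.33), the Rossmann-fold enzyme gene AT5G14700 (-1.31), the B-box gene BBX29 (AT5G54470, -1.26) and COBL8 (AT3G16860, -1.24), a COBRA-like wall protein gene, completed the 15 largest falls with AT1G26160. None of these genes overlapped between the groups, as the rule required. Their calls depended on single libraries: of these 9 and the 3 genes above, FRB1 lost its call without 2 of the 20 libraries in turn and WRKY33 without 14, with adjusted p values of up to 0.14.

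The stress and defence lists held few called genes. Of 22 rapid stress regulators 2 were called lower, WRKY33 and the zinc finger gene ZAT11 (AT2G37430), and all 22 values were negative, with a median of -1.28. Their summed level was 939 to 2334 CPM in cpd/WT and 543 to 1077 in cpd/cpd, so that the groups overlapped: cpd/cpd replicate 2 held 1077 CPM, above the 939 of cpd/WT replicate 1. Of 8 touch and calcium genes 1 was called, CML9 (AT3G51920, -0.34 ± 0.08, adjusted p = 0.04), with all 8 negative and a median of -1.18. Of 13 jasmonate response genes 1 was called, CYP94B3, with all 13 negative (median -0.59), and of 11 salicylate immunity genes (9 negative, 2 positive, median -0.69) 1, PAD4 (AT3G52430), a partner of EDS1 in immune signalling, which had 39.0 to 57.4 CPM in cpd/WT and 24.5 to 33.2 in cpd/cpd (-0.77 ± 0.17, adjusted p = 0.027). In the ER chaperone list (8 negative, 3 positive, median -0.03) 1 of 11 genes fell, ERDJ3A (AT3G08970, -0.98 ± 0.25, adjusted p = 0.049), and none of 7 cytosolic heat shock genes was called, all 7 being positive (median 0.10). Each of these 6 calls was lost without cpd/WT replicate 3 and without cpd/cpd replicate 1 or 3, with adjusted p values of up to 0.14. For comparison, 1.04% of all genes tested were called lower.

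The same exchange of root genotype under a WT shoot left most of the 389 genes uncalled. Those that were called more often kept their direction than reversed it. There 1972 genes (9.45%) were called, 1291 (6.19%) rising and 681 (3.26%) falling in the cpd root, and 125 genes were called under both shoots, 32.1% of the calls under the cpd shoot and 6.34% of those under the WT shoot. Of the 125, 96 had the same direction and 29 the opposite one. Of the 171 genes called higher under the cpd shoot, 117 were not called under the WT shoot, 53 were called higher under both and 1 was opposite, with a median of 0.51 under the cpd shoot and 0.19 under the WT shoot. Of the 218 called lower, 147 were not called under the WT shoot, 43 were lower under both and 28 opposite, with medians of -0.63 and 0.03.

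The interaction was called for 1613 genes (7.73%; 2.3% positive and 5.43% negative), 172 of them among the 389. As these 389 were chosen by 1 side of the difference tested, that share is a description. Of the 22 rapid stress regulators 18 were called higher in cpd roots under a WT shoot (median 1.5) and the interaction was called for 20. Their summed level was 458 to 887 CPM in WT/WT. In WT/cpd replicate 2 held 718 CPM, within the WT/WT range, and the other libraries 1340 to 2540. WRKY33 averaged 61.5 ± 16.2 CPM in WT/WT and 67.9 ± 6.92 in cpd/cpd, against 151 ± 64.7 in WT/cpd and 161 ± 81.8 in cpd/WT (SD, n = 5), with an interaction of -2.54 ± 0.45 (adjusted p = 0.0046). PUB23, PAD4, ZAT11, AT5G52020, AT2G41640, AT2G22880 and BBX29 were likewise called higher under a WT shoot and lower under a cpd shoot. The 14 phosphate starvation genes had no call under the cpd shoot (median -0.35) and 9 called higher under the WT shoot (median 1.47).

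**Figure D4:**
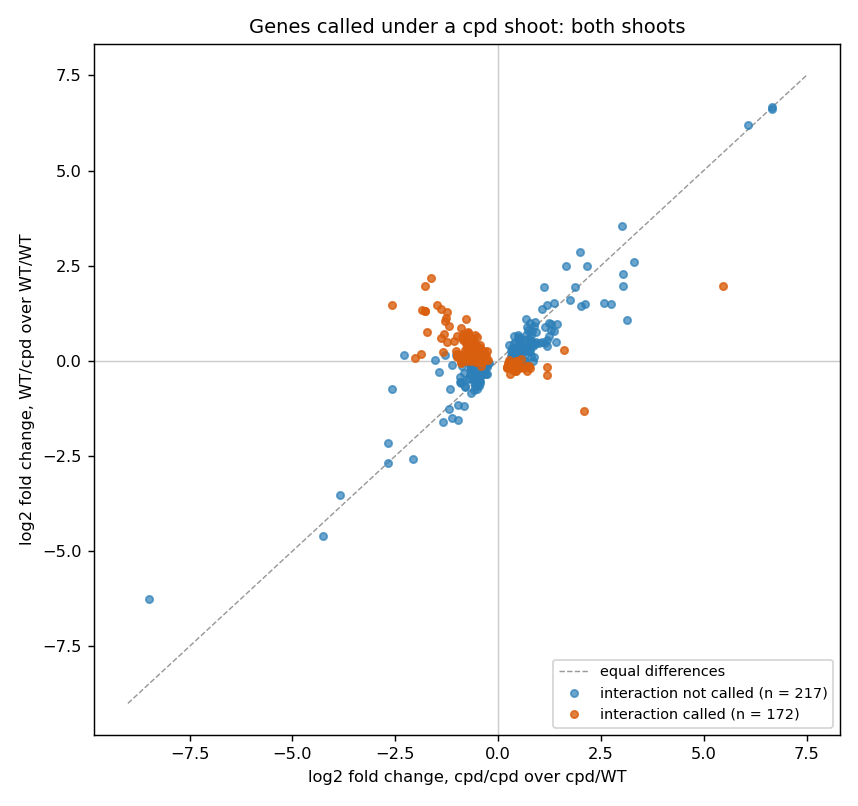
Log2 fold change for root genotype under a cpd shoot (horizontal axis) and under a WT shoot (vertical axis) of the 389 genes called under the cpd shoot; orange points were called in the interaction (172), blue points were not (217), and the dashed line marks equal differences. CPD (-3.85 and -3.51) and RCI2B (-4.25 and -4.61) lie near the dashed line, while genes such as WRKY33 (-1.25 and 1.29) and AT2G22880 (-1.79 and 1.98) fall under the cpd shoot and lie above 0 on the vertical axis.

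Some genes with a called interaction stood on tighter values. GA2OX6, named above, had 12.8 ± 2.33 CPM in WT/WT and 21.0 ± 4.93 in WT/cpd, so that its mean was higher in both grafts of unlike parts (interaction -1.55 ± 0.22, adjusted p = 0.0028). Its WT/cpd replicate 2, at 14.4 CPM, lay within the WT/WT range of 10.8 to 16.4. NTM1 (AT4G01540), a membrane-bound NAC factor, had 25.3, 25.1, 31.0, 23.1 and 27.5 CPM in cpd/WT and 14.4, 19.3, 12.4, 14.7 and 11.8 in cpd/cpd, against 13.1 ± 1.8 in WT/WT and 19.5 ± 4.43 in WT/cpd (interaction -1.42 ± 0.21, adjusted p = 0.0032). UPB1 had 14.7 ± 2.03 CPM in WT/WT and 21.8 ± 4.63 in WT/cpd (interaction -1.42 ± 0.23, adjusted p = 0.0039). Its lowest WT/cpd library (16.7 CPM) lay just below the highest of WT/WT (16.8). UPB1 too had its higher means in WT/cpd and cpd/WT. So did MYB49 (AT5G54230, interaction -1.23 ± 0.16), the kinase gene AT2G39360 (-0.83 ± 0.12) and the B-box gene BBX32 (AT3G21150, -3.82 ± 0.55), all at adjusted p values of 0.0026 to 0.0032. BBX32 was low and uneven, with group means of 0.27 to 1.47 CPM and a range of 0.55 to 2.76 CPM within WT/cpd. Its adjusted p under the cpd shoot rose to as much as 0.09 without single libraries.

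APS4 (AT5G43780), an ATP sulfurylase that activates sulfate, and AT1G78070, a WD40 repeat gene, showed another order; both were chosen after their values were seen. APS4 had 460, 457, 326, 541 and 421 CPM in cpd/WT and 197, 258, 172, 281 and 201 in cpd/cpd, a 1.99-fold fall (adjusted p = 0.002). In WT/WT it had 163 ± 20.7 CPM and in WT/cpd 176 ± 27.1, so cpd/WT alone stood high, with every library above every library of the other 3 grafts (interaction -1.10 ± 0.21, adjusted p = 0.0056). AT1G78070 had 41.6, 31.8, 54.5, 30.9 and 40.6 CPM in cpd/WT and 18.7, 20.5, 18.8, 22.9 and 19.4 in cpd/cpd, against 34.5 ± 9.18 in WT/WT and 38.3 ± 5.41 in WT/cpd. Here cpd/cpd had the lowest mean (interaction -1.15 ± 0.25, adjusted p = 0.009), though WT/WT replicate 4, at 20.1 CPM, lay within the cpd/cpd range.

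**Figure D5:**
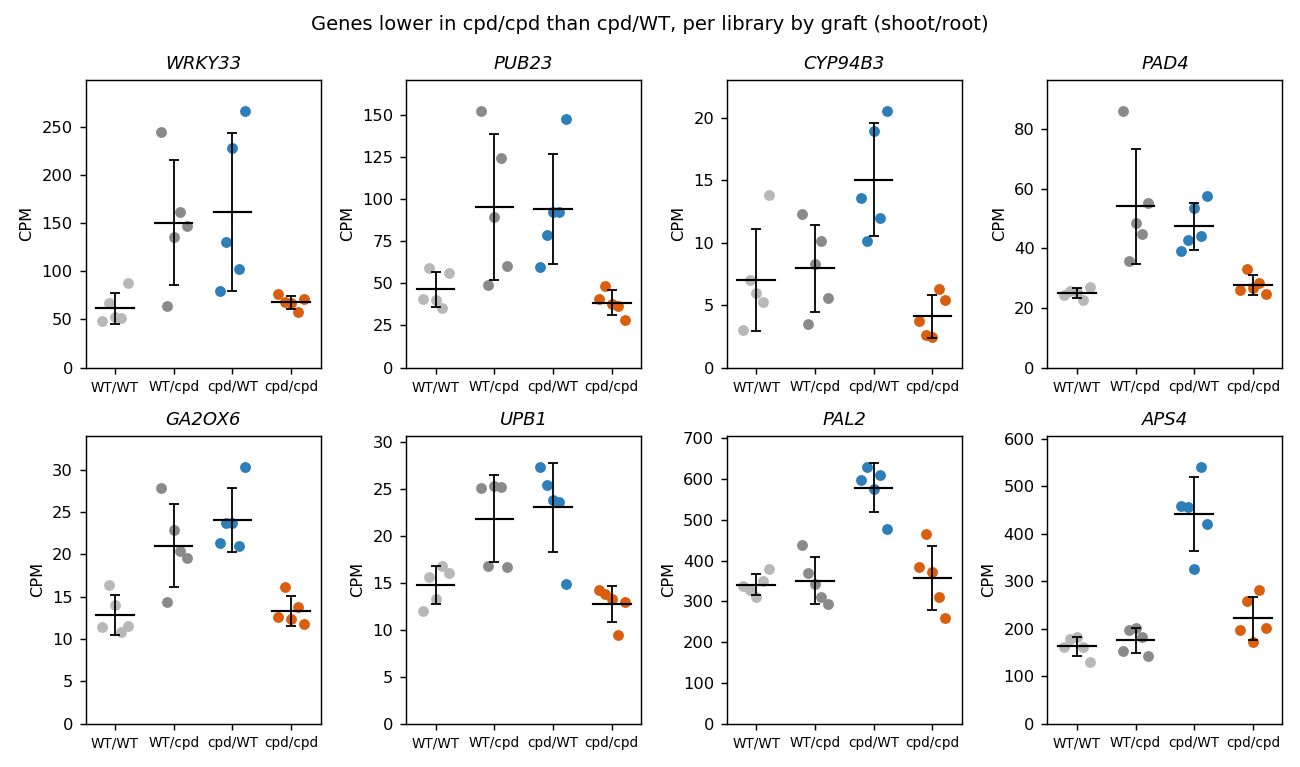
CPM per library (vertical axis, from 0) of 8 genes that fell under the cpd shoot, in the 4 grafts (horizontal axis, shoot/root); points are libraries, lines and bars the mean ± SD of 5. WRKY33, PUB23, PAD4, GA2OX6 and UPB1 have higher means in WT/cpd and cpd/WT than in the other 2 grafts, and PAL2 and APS4 in cpd/WT alone.

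The remaining large rises were of mixed kinds. AT4G23590, a tyrosine transaminase family gene, had 2.60, 1.70, 3.39, 3.26 and 5.5 CPM in cpd/WT and 10.5, 11.7, 15.2, 10.1 and 24.2 in cpd/cpd, the largest rise of the genes that met the rule on level and overlap (4.34-fold, adjusted p = 0.003). AT4G25410, a bHLH factor, had 4.30, 4.45, 3.34, 5.37 and 4.1 CPM against 9.92, 9.34, 9.25, 7.98 and 12.5 (2.27-fold, adjusted p = 0.0083), and the protein phosphatase gene AT5G66080 had 4.93, 6.81, 5.10, 7.14 and 5.63 against 12.4, 10.4, 12.9, 7.33 and 12.8 (1.89-fold, adjusted p = 0.012). These 3 were called under all 30 alternatives. AT5G26260, a TRAF-like gene and the most abundant of the rises, had 286, 423, 401, 411 and 397 CPM in cpd/WT and 879, 860, 1008, 446 and 1055 in cpd/cpd, with replicate 4 little above cpd/WT. It rose 2.22-fold (adjusted p = 0.029, and up to 0.091 without single libraries).

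The rest of the 15 largest rises were smaller or less stable. The non-coding RNA genes AT5G38005 (2.58-fold) and AT4G04221 (1.84-fold), the galactosidase gene BGAL7 (AT5G20710, 2.17-fold), the lipase-like gene ARAB-1 (AT1G28670, 1.89-fold), the aspartyl protease gene AT1G03230 (1.79-fold) and UGT85A1 (AT1G22400, 1.78-fold) had adjusted p values of 0.017 to 0.049, and each lost its call without at least 2 of the 20 libraries in turn, UGT85A1 without 13 (adjusted p up to 0.13). GATA2 (AT2G45050), a transcription factor of light and brassinosteroid responses, had 25.6 to 33.7 CPM in cpd/WT and 35.4 to 64.3 in cpd/cpd (1.72-fold, adjusted p = 0.013, and 0.051 without cpd/cpd replicate 5). DML1 (AT2G36490), also known as ROS1, a DNA glycosylase that removes cytosine methylation, and AIR3 (AT2G04160), a subtilisin-like protease gene induced by auxin, were chosen after their values were seen. DML1 had 35.8, 25.9, 43.8, 38.2 and 40.0 CPM against 65.5, 54.9, 70.5, 51.6 and 66.9 (1.68-fold, adjusted p = 0.0058). AIR3 rose 1.67-fold (adjusted p = 0.014, and 0.05 to 0.052 without cpd/cpd replicate 3 or 5). Both were higher in all 10 cpd roots than in all 10 WT roots, whichever the shoot.

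Most of the processes looked at showed no called member. Of 51 lists 32 had none, with medians from -0.51 to 0.23, among them root hair growth, epidermis fate, xylem, iron, nitrate and sulfate uptake, aquaporins, expansins, primary wall cellulose, cytosolic heat shock and the circadian clock. Over all lists 28 of 548 distinct genes were called, 10 higher and 18 lower, or 5.11% beside 1.86% of all genes tested. As the lists were chosen with earlier results of these data known, the higher share is a description only. At an unadjusted p under 0.05 in edgeR, 4137 of all genes tested passed, DESeq2 called 1249 at an adjusted p under 0.05, and in 5 pools against 5 a missed threshold does not show that a level was equal.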

How the data were processed

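RNA of whole roots, extracted with a column kit from pools of 3, was made into strand-specific libraries, per the labels' protocols. The authors deposited raw counts per gene for 20 libraries; the submitters' processing notes name STAR and TAIR10 with no version, and the counting tool, its annotation and its strand setting are not stated. All else was computed from these counts. Of 32833 gene codes, 32548 were found in the RefSeq TAIR10.1 gene table, which gave symbols, products and promoter windows.

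Counts were tested with edgeR 4.0.16 (R 4.3.3): TMM scaling, its default filter on low counts (20862 genes left) and a robust quasi-likelihood fit with 1 mean for each of 4 groups over all 20 libraries (16 residual degrees of freedom), so that the groups shared 1 estimate of spread. Contrasts were cpd/cpd minus cpd/WT, WT/cpd minus WT/WT, and their difference (the interaction). P-values were adjusted by Benjamini-Hochberg over all genes tested, and a gene was called below 0.05. SE was derived from the fold change and its F statistic. The labels do not say that the pools of a group were grown separately, and p-values then reflect only how these pools vary, which may be technical. The 20 pairs of libraries within the 2 groups differed by more than sampling noise (chi-square per degree of freedom of 6.0 to 47.2). Tested on simulated data, with counts drawn for 20771 genes under this comparison, the fit recovered 53.7% of 1.5-fold, 91% of 2-fold and 100% of 4-fold changes, with 12 false calls. Those counts were drawn independently for each gene and library. They held no library that stood apart over many genes, as cpd/cpd replicate 4 did, so these shares may not hold for the real libraries.

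Named genes were the 15 largest rises and 15 largest falls that were called, did not overlap between the grafts and averaged 2 or more in log2 CPM, along with called members of 51 gene lists and 2 more per list, a set of brassinosteroid genes and RCI2 genes, and the 10 leading genes of the interaction; the text names a part of them. Some other genes were named after their values were seen, as stated where they appear. The members and lists were chosen with earlier results of these data known. Alternatives used limma 3.58.1, DESeq2 1.42.0, other filters and scalings, and leaving out libraries.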

Additional observations from a re-analysis of the deposited data

Results flagged for a closer look

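In 148 groups of 5 libraries (74 named genes, in both grafts), 10 had 1 library standing apart from the other 4 by Dixon's criterion; chance flags about 1 in 20. In cpd/cpd this was replicate 4 in each case: BR6OX2 at 34.6 CPM (the others 46.0 to 50.6), AT2G05320 at 18.7 (20.3 to 20.8), UPB1 at 9.45 (12.9 to 14.2) and AT4G04223 at 21.2 (16.6 to 17.7). In cpd/WT replicate 2 stood apart with AIR3 at 48.8 CPM (68.2 to 70.7) and ARR3 at 11.6 (7.15 to 7.82). Replicate 5 did so with GA2OX6 at 30.3 (21.0 to 23.7) and RGL2 at 5.21 (3.97 to 4.29), replicate 3 with RCI2B at 1560 (1811 to 1904) and replicate 1 with AT5G26260 at 286 (397 to 423).

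For 27 named genes the difference between cpd and WT roots was itself different under the 2 shoots, as tested by the interaction in edgeR at an adjusted p under 0.05. It was positive for CYCB2;1 (0.89 on the log2 scale) and negative for the other 26. Among stress, defence and jasmonate genes it was -3.76 for AT2G22880, -3.17 for AT5G52020, -3.10 for AT2G41640, -3.07 for AT2G25460, -2.76 for ZAT11, -2.54 for WRKY33, -2.47 for SRO5, -2.33 for PUB23, -2.06 for CYP94B3, -1.87 for PAD4 and -0.50 for CML9. Among transcription factors of other kinds it was -3.82 for BBX32, -2.39 for BBX29, -1.61 for MYB41, -1.42 for UPB1 and for NTM1, and -1.23 for MYB49. Among enzymes and other proteins it was -2.01 for AT5G14700, -1.74 for COBL8, -1.56 for FRB1, -1.55 for GA2OX6, -1.15 for AT1G78070, -1.10 for APS4, -0.83 for AT2G39360, -0.73 for PAL2 and -0.37 for ROT3.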

How the results depend on the processing

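The count of 389 genes under the cpd shoot lay within 1.5 times of itself with DESeq2 size factors, both other filters on low counts, no robust estimation, organelle genes left out and a fit to the 2 groups alone. It was 1249 with the DESeq2 test, 5670 with limma-voom sample weights and 1986 without cpd/cpd replicate 4 and cpd/WT replicate 2, and 86 to 690 without single libraries. Under the WT shoot the count of 1972 became 991 in a fit to its 2 groups alone and 1037 to 2240 without single libraries. The interaction's 1613 became 4179 with sample weights, 3389 without those 2 libraries and 1050 to 2407 without single libraries. The causes were not tested. With the replicate number as a block the counts were 353, 1631 and 1415; deviations of same-numbered libraries correlated at -0.238, 0.268, -0.026, 0.018 and 0.08, so the numbers were not taken as pairing. ROT3, at 0.03 and not called, was -0.038 with sample weights and -0.052 without those 2 libraries, and -0.026 to 0.065 without single libraries. Of the values of named genes under alternatives, 1947 kept direction and side of the threshold, 253 lost the call, 16 gained one and 3 changed sign. DESeq2 gave MRD1 no adjusted p. Depth limits the near-absent transcripts: at counts of 0 to 11, low expression and none could not be separated.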
